A study of Mus musculus with 10 samples.

Results

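The genes examined here were 10 listed genes of mitochondrial fission and fusion, out of 21098 genes in the table of gastrocnemius (GAS) counts: Dnm1l, Mff, Fis1, Mief1, Mief2 and Mtfp1 for fission, and Mfn1, Mfn2, Opa1 and Oma1 for fusion and its control. They were chosen by symbol, and all 10 were found in the table. The animals were wild-type C57BL/6J males (C57BL/6JBomTac in the study's methods) made obese by diet (DIO mice), on a high-fat diet from 9 weeks of age, for 9 weeks before the injections and throughout them. One group of 5 then received subcutaneous injections of 10 mg/kg anti-miR-22 ASO (an antisense oligonucleotide with locked nucleic acid bases, labelled RES-010) every week for 14 weeks. The other group of 5 (CTRL) received matched volumes of saline, so both groups carry the diet and the injections, and no oligonucleotide of another sequence was given to the controls. In the study's weight list, some CTRL mice were lighter at the start of treatment than every ASO mouse, and weight entered no comparison here. Muscles were taken at the end of treatment, at about 32 weeks of age when these periods are summed, and each library is 1 sample. Levels of miR-22 were not analysed here, so the labels were not checked against the target of the ASO.

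Mitochondria divide and join continually, and the balance sets their length and lets damaged parts be removed. In fission, the dynamin-like GTPase Drp1, made from Dnm1l, is drawn from the cytosol to the outer membrane by the receptors Mff, Fis1, Mief1 and Mief2 and constricts it, while Mtfp1 acts at the inner membrane. In fusion, the mitofusins Mfn1 and Mfn2 tether and join outer membranes and Opa1 joins inner membranes, and the protease Oma1 cuts Opa1 when the membrane potential falls. In skeletal muscle, with its dense mitochondrial network between myofibrils, these genes are studied in relation to endurance, ageing and atrophy.

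A microRNA pairs through its seed with matching sites in 3′UTRs. The sequences below are shown because they are the inhibited microRNA and the only match to its seed found in the members, with the seed (bases 2 to 8) or its complement in capitals. The mature sequence is from RefSeq, where it lies on the plus strand of chr11:75463772-75463793 of GRCm38.p6, and the genomic site was read from GRCm39, from the plus strand around chr11:60622659-60622665.
miR-22-3p: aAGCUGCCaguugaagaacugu
Mief2 site: agtttctggtgGGCAGCTtggagcaggct

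The heptamer GGCAGCT, sought on the transcript's strand in the longest 3′UTR that GENCODE M39 gives a gene, was in 1 of the 10 members. It lies at position 867 of the 1986-bp 3′UTR of the Mief2 transcript ENSMUST00000493436. In the canonical Mief2 transcript, ENSMUST00000018743, the same 7 bases are coding sequence, and they end 613 bp before the stretch in which Mief2 was counted. Of 20969 genes with a 3′UTR, 16.7% hold this heptamer, and of the 7781 that were also tested 21.7%. The other seed match, GCAGCTA, was in none of the 10 members and in 10.1% of the 20969 genes. A match is a description of the letters only.

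Reads were counted per segment, the last 500 bp or less of each annotated 3′UTR, and a base shared by overlapping segments of any transcript gave almost no counts. Of 18030 segments with no base of their own on their strand, 17783 had no count. The members have 32 segments, of which 13 hold at least 100 counts over the 10 libraries, and the map of segments shows 6 of the genes. Mief2, Mtfp1, Opa1 and Oma1 were measured wholly or mostly on the most distal segment of the gene. Dnm1l, Mff, Mief1, Mfn1 and Mfn2 were measured mostly on segments that end 236 to 1886 bp before the most distal end. Most distal here means last among the segments listed for a gene. In GENCODE M39 the genes Oma1 and Mfn1 run on to 103229065 and 32645888, past segment ends at 103223640 and 32633388. Dnm1l, Mff, Mief1, Mfn2 and Opa1 also run past theirs. The distance classes below thus refer to segment ends, not gene ends.

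**Figure D1:**
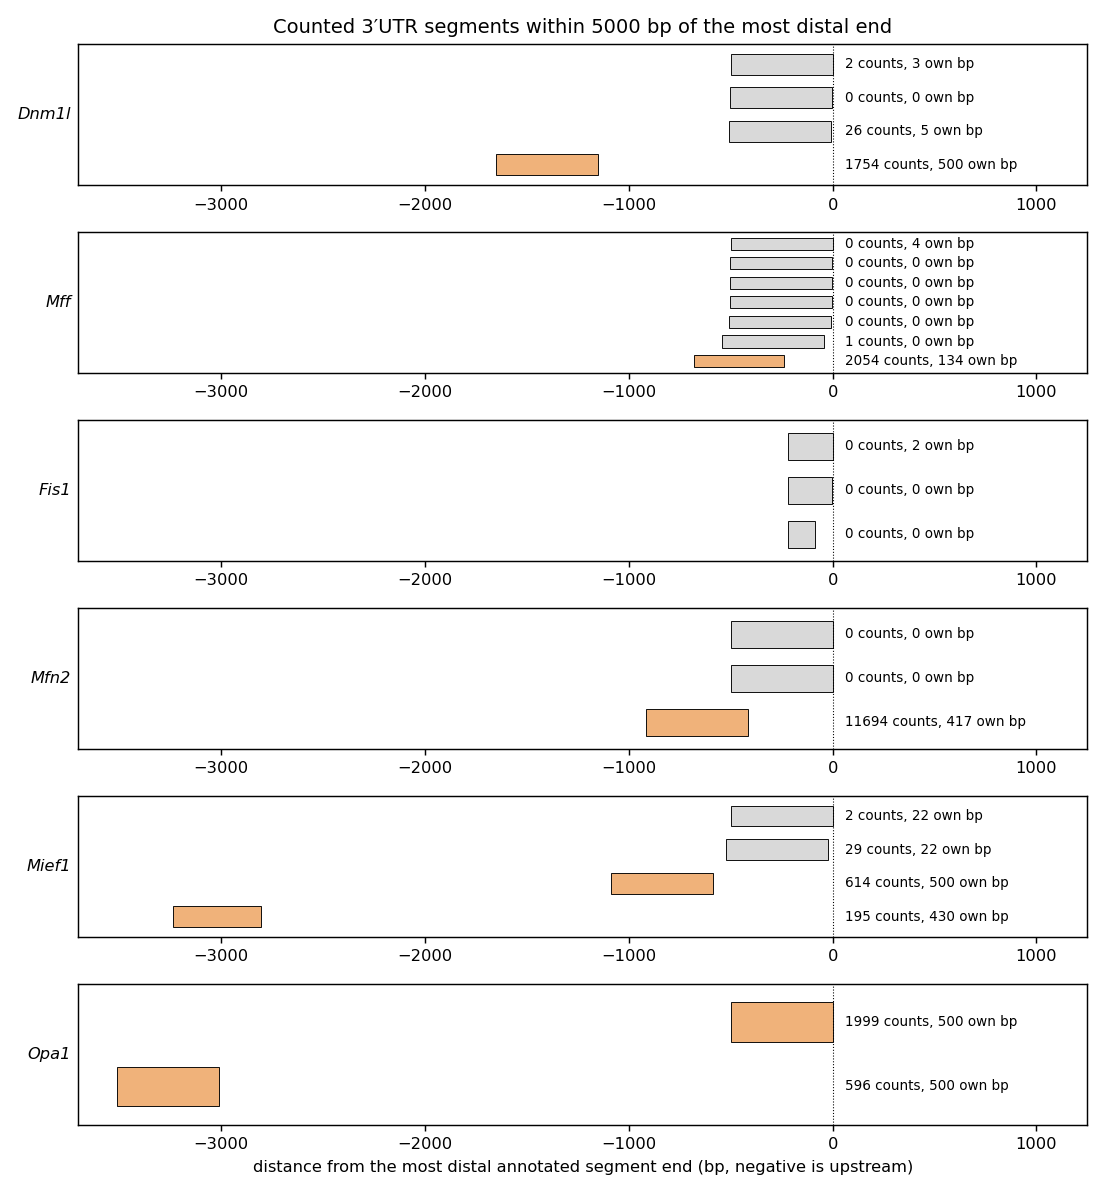
Position of the segments of 6 members (Dnm1l, Mff, Fis1, Mfn2, Mief1 and Opa1), 1 panel per gene and 1 bar per segment, as distance in bp from the most distal segment end (horizontal axis, 0 at that end, negative upstream), with total counts and own bp at the right. Orange bars are segments with at least 100 counts over the 10 libraries and grey bars are segments with fewer; the segments that end 24254 bp (Dnm1l), 7895 bp (Mfn2) and 24480 bp (Opa1) upstream are outside the plotted window. The counted segment of Dnm1l lies 1153 bp from that end and that of Mff 236 bp from it. The segments at that end in these genes and in Mfn2 hold few or no counts.

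The position of a segment went with the direction of its change over the whole table. Of the 5060 most distal segments tested, 25.2% were higher and 4.37% lower in ASO-treated muscle, with a median log2 fold change of 0.30. Of the 3737 segments ending 1000 bp or more upstream, 5.43% were higher and 53.7% lower, with a median of −0.86, and the 1855 segments between had 12.1% higher, 21.6% lower and a median of −0.18. The segments ending 1000 bp or more upstream held 14.9 to 18.2% of a library's counts with the ASO and 22.8 to 29.7% in CTRL. The ASO libraries were also deeper, with totals of 2239186 to 2632560 counts against 1606909 to 2116720. Summed levels of marker genes were also compared. Those of skeletal muscle (10 genes, 3 of 5 tested higher, Mb, Mylpf and Tnnt3 at 0 counts) were 105994 to 171258 CPM with the ASO and 53115 to 101666 in CTRL. Macrophage sums (8 genes, 1 of 6 tested lower, Adgre1 and Cd163 at 0) were 74.0 to 575 against 261 to 1609 CPM, fibroblast sums (5 genes, 1 of 3 tested lower, Dcn at 0) 38.2 to 256 against 190 to 340, and adipocyte sums (7 genes, none of 6 tested called by edgeR) 721 to 3758 against 846 to 13744. CTRL replicate 3 set the highest control value of these 3 lists and the lowest of the muscle list. Without it the CTRL ranges were 846 to 2383 CPM for adipocyte, 261 to 587 for macrophage and 190 to 243 for fibroblast markers, each overlapping the ASO range, and 74653 to 101666 for muscle markers, still below it. Endothelial sums (6 genes) were 168 to 374 against 183 to 326, Schwann cell sums (6 genes) 41.0 to 567 against 81.6 to 167, and blood sums (5 genes, Alas2 at 0) 283 to 1715 against 891 to 1468, with none called. ASO replicate 4 set the highest Schwann cell sum, and the other ASO libraries had at most 125 CPM. It also set the highest ASO sums of fibroblast and macrophage markers. Without it the ASO range for fibroblast markers was 38.2 to 123 CPM, below all controls (190 to 340). For macrophage markers it was 74.0 to 415, still overlapping CTRL (261 to 1609). The part of position, depth and cell make-up in the results below was not tested, except where a value is given, and in whole muscle fewer cells of a type and less RNA per cell cannot be told apart.

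Among the fission genes, Dnm1l, Mff and Mief1 fell and Mief2 rose with the anti-miR-22 ASO. Mtfp1 and the 4 genes of fusion and its control (Oma1 among them) did not pass the test, and Fis1 had no counts. Of the 9 members tested, 3 were lower and 1 was higher at an edgeR adjusted p under 0.05, where 17.4% of all 7813 tested genes were lower, 11.8% higher and 29.2% either. The ASO libraries lay wholly below CTRL for 3 members, as for 13.4% of all genes, and wholly above for none of them, as for 7.97% of all genes (21.4% in either direction). The median log2 fold change (ASO minus CTRL) was −0.38 over the 9 members and −0.03 over all genes. It was −0.47 over the 5 tested fission genes and −0.31 over the 4 genes of fusion and its control.

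**Figure D2:**
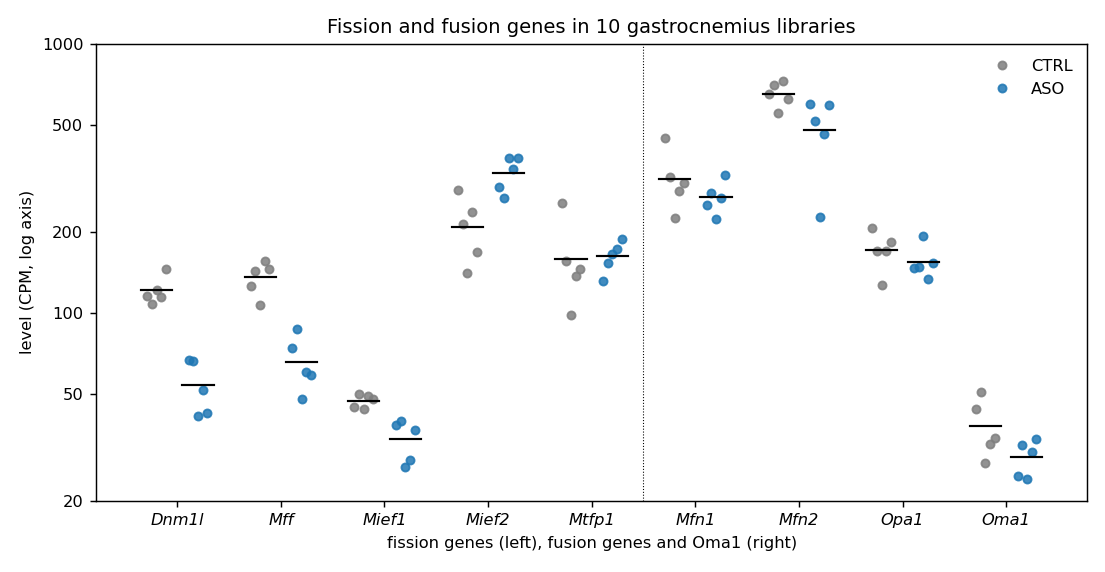
Level of the 9 members with counts in each library, in CPM (counts scaled by the TMM-normalized library total to edgeR's CPM), on a log axis, with fission genes at the left and fusion genes and Oma1 at the right. Grey (CTRL) and blue (ASO) points are the 5 libraries of a group and horizontal bars are group means. For Dnm1l, Mff and Mief1 every ASO point lies below every CTRL point, and for Mief2 the groups overlap at a CTRL library of 286 CPM.

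Dnm1l (ENSMUSG00000022789) fell to 0.444 times its CTRL level. It had 66.6, 66.3, 41.4, 51.8 and 42.4 CPM in the ASO libraries and 116, 108, 122, 114 and 145 CPM in CTRL. The highest ASO library was thus well below the lowest control. The means were 53.7 ± 12.3 and 121 ± 14.5 CPM (SD, n = 5), a log2 fold change of −1.17 (SE 0.17, 95% interval −1.54 to −0.81, edgeR adjusted p = 0.000513). The exact two-sided permutation test on log2(CPM + 1) gave p = 0.00794, the smallest it can give with 252 labellings. The call was kept in each of the 10 fits that left out 1 library, with log2 fold changes of −1.24 to −1.06.

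Nearly all of this signal, 98.4% of the Dnm1l counts, came from 1 segment, chr16:16131247-16131746 of GRCm39 on the minus strand. It ends 1153 bp before the most distal end, within the 3174-bp 3′UTR of the canonical transcript, and has an ATTAAA hexamer starting 26 bp before its end. Exons of Yars2, on the opposite strand, overlap it, and reads of the 2 genes can be told apart only if counting used strand. The 3 segments at the distal end have 3, 0 and 5 bp of their own and held 2, 0 and 26 counts. The distal stretch of the longest Dnm1l 3′UTRs was thus almost unmeasured. Transcripts with that stretch in the canonical 3′UTR also contain the 1153-bp segment, so its counts do not separate long from short 3′UTRs. In the test across segments the 1153-bp segment was lower by −1.16 (SE 0.17, adjusted p = 0.000266), where 40.6% of the 10652 segments tested were called, 24.7% as lower and 16% as higher. When segments 1000 bp or more upstream were fitted and scaled on their own, a fit chosen after seeing the data, its log2 fold change was −0.37 (adjusted p = 0.0794), in a class where 57.6% were called. Of that class, 40.0% had a lower value than the Dnm1l segment.

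Mff, the main Drp1 receptor of the outer membrane, fell to 0.484 times its CTRL level. Its levels were 73.9, 87.1, 47.8, 60.1 and 58.9 CPM with the ASO and 126, 143, 107, 156 and 146 CPM in CTRL, again without overlap. The means were 65.6 ± 15.2 and 136 ± 19.2 CPM (SD, n = 5), and the log2 fold change was −1.05 (SE 0.17, 95% interval −1.42 to −0.67, edgeR adjusted p = 0.00114, exact permutation p = 0.00794). Leaving out 1 library kept the call in 10 of 10 fits, at −1.15 to −0.92.

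Mff has 7 segments within 236 bp of each other, and 99.95% of its counts fell on the one at chr1:82729438-82729879, plus strand, of which 134 bp are its own. The 6 others have 0 to 4 bp of their own and 1 count in all. Among segments ending under 1000 bp upstream and fitted on their own, of which 33.5% were called, it was still lower by −0.87 (SE 0.15, adjusted p = 0.00143), and 11.9% of that class had a lower value. Set against segments at its own distance, Mff thus passed the test, whereas Dnm1l missed the threshold. Whether the 2 genes differ from each other in this was not tested.

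Mief1, which binds Drp1 at the outer membrane, was lower by less. It had 38.1, 39.5, 26.6, 28.4 and 36.8 CPM with the ASO and 44.8, 49.9, 44.0, 49.0 and 47.7 CPM in CTRL. The groups did not overlap, but the gap between the highest ASO library and the lowest CTRL library was small. The means were 33.9 ± 5.93 and 47.1 ± 2.59 CPM (SD, n = 5), a log2 fold change of −0.47 (SE 0.15, 95% interval −0.79 to −0.16, edgeR adjusted p = 0.0287, exact permutation p = 0.00794). The call was lost in 6 of 10 fits that left out 1 library (ASO replicates 3, 4 and 5 and CTRL replicates 2, 4 and 5, with log2 fold changes of −0.36 to −0.49) and in 5 of 10 other settings, over which adjusted p ran from 0.00546 to 0.127.

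The segments of Mief1 moved apart. The segment at chr15:80136488-80136987, plus strand, 585 bp before the most distal end, held 73.1% of the counts. It belongs to a transcript annotated for nonsense-mediated decay, and its 500 bp all lie in the canonical 3′UTR. Its log2 fold change was −0.06 (SE 0.18, 95% interval −0.46 to 0.34, edgeR adjusted p = 0.820), a value that turned to 0.03 with upper quartile scaling. The segment at chr15:80134337-80134766, 2806 bp upstream, held 23.2% and gave 9, 8, 7, 6 and 12 counts with the ASO and 26, 25, 25, 32 and 45 in CTRL. Every ASO library was below every control there although it was deeper. In CPM this was 3.85 ± 1.25 against 16.0 ± 6.04 (SD, n = 5), a log2 fold change of −2.04 (SE 0.32, adjusted p = 0.000374). The 2806-bp segment took 8.60 to 15.4% of the Mief1 counts per library with the ASO and 23.4 to 52.9% in CTRL, and the test of segment usage within a gene gave an adjusted p of 2.9e-05, as one of 67.2% of the 2272 genes tested that passed. Fitted among segments of its own distance class it remained lower, by −1.22 (SE 0.30, adjusted p = 0.00229), with 18.4% of the class below it.

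Mief2, the close relative of Mief1 with the same Drp1-binding role, was the 1 member that rose, to 1.58 times CTRL. Its levels were 293, 267, 377, 342 and 376 CPM with the ASO and 286, 214, 141, 238 and 168 CPM in CTRL. CTRL replicate 1 lay above ASO replicate 2, and the other controls lay below all treated libraries. The means were 331 ± 49.5 and 209 ± 57.2 CPM (SD, n = 5), a log2 fold change of 0.66 (SE 0.19, 95% interval 0.24 to 1.08, edgeR adjusted p = 0.0224, exact permutation p = 0.0159).

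Mief2 has a single segment, chr11:60623278-60623777 on the plus strand, all 500 bp its own, at the distal end of the gene. Of the 2572 tested segments that are the only one of their gene, 25.3% were higher and 4.51% lower, with a median of 0.28. Fitted among most distal segments alone, of which 11.3% were called, Mief2 stood at 0.38 (SE 0.17, adjusted p = 0.160), above 83.3% of its class. The call of the summed gene was also lost without CTRL replicate 5 (0.59, adjusted p = 0.0604, range over the 10 such fits 0.00894 to 0.0604) and with scaling by total counts (0.48, adjusted p = 0.0543).

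Mtfp1, the inner membrane fission gene, showed no difference that passed the test. It had 131, 153, 166, 173 and 188 CPM with the ASO and 256, 156, 98.3, 137 and 145 CPM in CTRL, so CTRL replicates 1 and 3 were both outside the treated range. The log2 fold change was 0.03 (SE 0.22, 95% interval −0.44 to 0.51, edgeR adjusted p = 0.925), with means of 162 ± 21.3 and 159 ± 58.7 CPM (SD, n = 5), and its sign changed with the scaling (−0.14 by total counts). Its only segment is chr11:4041480-4041979, minus strand, with 500 bp of its own.

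Fis1, the outer membrane receptor first described in yeast, was listed at 0 counts in all 10 libraries. Its 3 segments share the start chr5:136994869, plus strand, and end within 85 bp of each other, the longest at 136995088, so that only 2 bp belong to 1 segment alone. Of genes with so little sequence of their own most had no value: 1065 of the 1492 genes with 1 to 10 bp of their own had no count, and no limit on the level of Fis1 follows from it.

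The 4 genes of fusion and its control had no call on summed counts by edgeR (0 also at an unadjusted p under 0.05, and 0 by DESeq2 or limma-voom). Segments of Mfn1 and Opa1 did have calls. Mfn2, which also links mitochondria to the endoplasmic reticulum, had 597, 518, 227, 462 and 595 CPM with the ASO and 649, 703, 553, 731 and 622 CPM in CTRL. ASO replicate 3 was far below the other libraries, and the 2 highest treated libraries lay within the control range. The means were 480 ± 152 and 652 ± 69.7 CPM (SD, n = 5) and the log2 fold change −0.44 (SE 0.23, 95% interval −0.93 to 0.05, edgeR adjusted p = 0.159, exact permutation p = 0.0317 before any adjustment). Without ASO replicate 3 it was −0.23. Counts came from chr4:147958473-147958972, minus strand, 417 bp upstream, with 99.9% of the gene, since the 2 most distal segments are identical to each other and had none.

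Mfn1, the mitofusin with the stronger tethering activity, had 252, 278, 222, 266 and 326 CPM with the ASO and 446, 319, 225, 284 and 304 CPM in CTRL, with CTRL replicate 1 above all treated libraries and the other controls among them. The log2 fold change was −0.23 (SE 0.18, 95% interval −0.62 to 0.16, edgeR adjusted p = 0.358), from means of 269 ± 38.2 and 316 ± 81.1 CPM (SD, n = 5). Of its counts, 94.6% were on chr3:32631291-32631502, plus strand, 1886 bp upstream, where the log2 fold change was −0.16 (adjusted p = 0.516).

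The most distal Mfn1 segment, chr3:32632889-32633388, held 4.83% of the counts and fell. Of most distal segments, 1274 were higher and 221 lower in the fit over all segments, and 234 higher and 337 lower when fitted on their own. It had 10.2, 13.2, 8.002, 9.49 and 12.0 CPM with the ASO and 19.96, 20.16, 9.39, 22.9 and 19.8 CPM in CTRL, so 4 controls were above all treated libraries and CTRL replicate 3 was among them. The log2 fold change was −0.80 (SE 0.26, edgeR adjusted p = 0.0271), and the call was kept in 2 of the 10 fits that left out 1 library, with adjusted p of 0.00454 to 0.0855. Exons of Gnb4 on the opposite strand overlap the segment. Within the most distal class Mfn1 stood at −1.11 (adjusted p = 0.0198), with 5.30% of the class below it, and the 1886-bp segment stood at 0.61 in its own class (adjusted p = 0.0355). Usage of the 2 segments differed between the groups (diffSpliceDGE adjusted p = 0.0391), in a test that 67.2% of the 2272 genes passed.

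**Figure D3:**
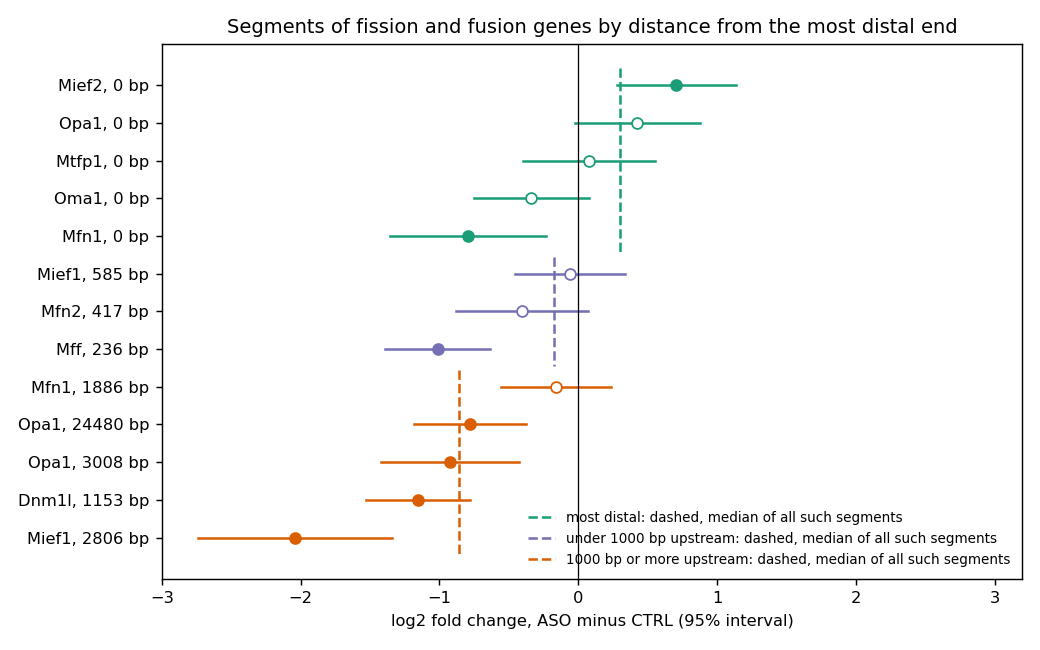
Log2 fold change (ASO minus CTRL, with its 95% interval) of the 13 member segments that passed the filter on low counts, grouped by distance from the most distal segment end of the gene. Filled points have an edgeR adjusted p under 0.05 and dashed lines are the medians of all tested segments at that distance (0.30, −0.18 and −0.86); Mff lies well below the line of its class and the upstream Opa1 segments lie near theirs.

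Opa1, the inner membrane fusion GTPase, did not pass the test as a sum. It had 146, 148, 192, 133 and 153 CPM with the ASO and 207, 169, 127, 169 and 184 CPM in CTRL, with full overlap. The log2 fold change was −0.15 (SE 0.15, 95% interval −0.48 to 0.18, edgeR adjusted p = 0.492), from means of 155 ± 22.4 and 171 ± 29.2 CPM (SD, n = 5). That sum joins 3 segments with different directions.

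The most distal Opa1 segment, chr16:29473203-29473702, plus strand, held 58.4% of the counts and had 91.8, 109, 137, 96.2 and 107 CPM with the ASO against 117, 93.4, 51.4, 70.5 and 69.5 CPM in CTRL. CTRL replicates 1 and 2 lay within the treated range and the other 3 controls below all treated libraries. Its log2 fold change was 0.43 (SE 0.21, 95% interval −0.03 to 0.88, edgeR adjusted p = 0.122). The segment 3008 bp upstream, chr16:29470195-29470694, covers 123 bp of the canonical 3′UTR and 377 bp of intron, and had 21.9, 15.3, 27.1, 12.9 and 24.5 CPM against 35.3, 29.3, 34.6, 45.2 and 48.6 CPM. All treated libraries were below all controls, with a log2 fold change of −0.92 (SE 0.23, adjusted p = 0.00668).

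The third Opa1 segment, chr16:29448723-29449222, ends 24480 bp upstream, belongs to a transcript annotated for nonsense-mediated decay, and covers 111 bp of coding sequence and 389 bp of intron of the canonical transcript. It had 33.5, 24.3, 38.2, 28.5 and 24.5 CPM with the ASO and 52.0, 43.5, 41.0, 52.9 and 66.7 CPM in CTRL, also without overlap, for −0.78 (SE 0.19, edgeR adjusted p = 0.00550). The most distal segment therefore took 62.4 to 73.3% of the Opa1 counts per library with the ASO and 37.6 to 57.2% in CTRL. Segment usage differed with a diffSpliceDGE adjusted p of 0.000101, in a test that 67.2% of the 2272 genes passed. Within their own distance classes the 3 segments stood at 0.10, −0.10 and 0.04 (adjusted p = 0.754, 0.742 and 0.884), so none passed the test once set against its class, and the widest 95% interval reached from −0.59 to 0.40. AATAAA or ATTAAA was present in the last 40 bp of both upstream Opa1 ends and not in that of the most distal one, whereas 72.3% of all most distal ends and 33.1% of ends 1000 bp or more upstream hold one.

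**Figure D4:**
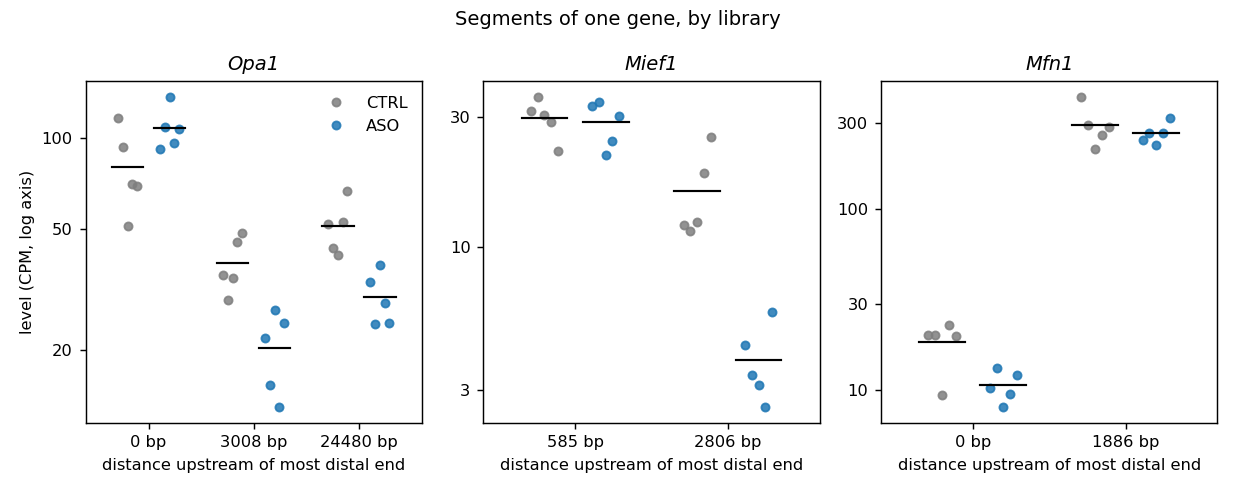
CPM per library (log axis) on each tested segment of Opa1, Mief1 and Mfn1, placed by distance upstream of the most distal end, with CTRL libraries in grey, ASO libraries in blue and bars at the group means. On the upstream segments of Opa1 and on the 2806-bp segment of Mief1 every ASO point lies below every CTRL point, while on the most distal Opa1 segment the groups overlap.

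Oma1, the stress-activated protease that cleaves Opa1, had 24.6, 32.3, 24.1, 30.5 and 34.0 CPM with the ASO and 43.9, 50.8, 27.7, 32.5 and 34.3 CPM in CTRL. CTRL replicates 1 and 2 were the highest libraries, and the other 3 controls, at 27.7 to 34.3 CPM, lay close to the treated ones. The means were 29.1 ± 4.49 and 37.8 ± 9.36 CPM (SD, n = 5) and the log2 fold change −0.38 (SE 0.19, 95% interval −0.79 to 0.03, edgeR adjusted p = 0.152). Its only counted segment is chr4:103223383-103223640, plus strand, the 258-bp 3′UTR of the canonical transcript. Among most distal segments alone it was lower, by −0.66 (SE 0.17, adjusted p = 0.0324), with 13.6% of the class below it, and it also passed with scaling by total counts (−0.55, adjusted p = 0.0381).

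Levels can be compared between genes only per length, so the main segment of each gene was divided by the bases it does not share. These were 134 bp for Mff, 212 for Mfn1, 258 for Oma1, 417 for Mfn2 and 500 for the others. The part of this length, and of distance from the most distal segment end, in the order below was not tested. In CTRL the mitofusins and Mff were highest, with 1550 ± 157 CPM per kb for Mfn2, 1382 ± 360 for Mfn1 and 1006 ± 143 for Mff (SD, n = 5). Mief2 followed at 415 ± 111, Mtfp1 at 315 ± 114, Dnm1l at 238 ± 31.4, Opa1 at 161 ± 50.3, Oma1 at 145 ± 34.6 and Mief1 at 59.7 ± 9.59 CPM per kb. Neighbours in this order overlapped in range, except Mff over Mief2 and Oma1 over Mief1. With the ASO the order was Mfn1 (1239 CPM per kb), Mfn2 (1170), Mief2 (678), Mff (498), Mtfp1 (332), Opa1 (216), Oma1 (115), Dnm1l (107) and Mief1 (57.5). Here neighbours overlapped except Opa1 over Oma1 and Dnm1l over Mief1. Mief2 thus had a higher mean than Mff with the ASO, with overlapping ranges, and a lower one without overlap in CTRL. These are levels of 1 segment each. Transcripts that do not contain the segment are not in them, while transcripts that run through it to a more distal end are.

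The summed CPM of the fission members was 647 ± 39.7 with the ASO and 672 ± 113 in CTRL (SD, n = 5). That of the fusion members, Oma1 included, was 932 ± 168 and 1177 ± 154. As a description with no test, the log2 ratio of fission to fusion was −0.51 ± 0.30 with the ASO and −0.81 ± 0.07 in CTRL, with overlapping ranges. ASO replicate 3 stood at −0.014, and without it the ASO mean was −0.63 ± 0.13 and the difference between the groups 0.18 in place of 0.31. The log2 ratio of Mief2 to Mief1 was 3.29 ± 0.44 against 2.11 ± 0.39, and that of Dnm1l to Opa1 −1.54 ± 0.47 against −0.49 ± 0.30, without overlap in either case, and that of Mfn2 to Mfn1 0.77 ± 0.45 against 1.07 ± 0.33, or 0.95 ± 0.20 without ASO replicate 3. These sums and ratios mix segments at different distances from the most distal segment end, and they are not divided by length. Mief2 was the largest of the fission members (331 CPM with the ASO, 209 in CTRL), and Fis1 entered at 0. Mfn2 was the largest of the fusion members (480 CPM with the ASO, 652 in CTRL). The part of single genes in the fission to fusion ratio was not tested.

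The other genes of mitochondrial dynamics moved in both directions. Of 38 further listed symbols, 37 were in the table (Phb is an older name of Phb1), 33 were tested, and 6 were higher, 9 lower and 18 without a call, where 11.8% of all tested genes were higher and 17.4% lower, with a median log2 fold change of −0.25. Of the fission helpers and regulators 3 of 9 tested were lower and none higher by edgeR, namely Akap1, Mtfr1 and Dnm2. The group was not split by whether a gene promotes or restrains fission. Akap1, which anchors protein kinase A at the outer membrane, had the smallest p of the list, with 10.5 ± 2.82 CPM against 57.7 ± 20.9 (SD, n = 5), a log2 fold change of −2.44 (SE 0.27, adjusted p = 0.000136). Mtfr1, a fission regulator, was lower by −1.45 (adjusted p = 0.000664), and Dnm2, a dynamin of membrane scission, by −2.11 (adjusted p = 0.00216). Mul1, a ubiquitin ligase of the outer membrane, was lower by −1.81 (adjusted p = 0.00111). Rhot1, the Miro GTPase that couples mitochondria to motors, was lower by −0.70 (adjusted p = 0.00222).

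In the inner membrane group, 4 of 14 tested genes were higher and 3 lower, with a median of 0.03. Micos13, of the cristae junction complex, was higher by 0.88 (SE 0.17, edgeR adjusted p = 0.00239), with 209 ± 23.6 CPM against 113 ± 28.0 (SD, n = 5) and no overlap. Phb2, a prohibitin of the scaffold around the inner membrane proteases, was higher by 0.75 (SE 0.17, adjusted p = 0.00696), with 331 ± 60.3 against 197 ± 39.5 CPM. Spg7, an m-AAA protease subunit, was lower by −1.17 (adjusted p = 0.00625). All 9 lower genes of the list had over 50% of their counts on segments 1000 bp or more upstream and all 6 higher genes had over 50% on the most distal segment, where the 18 without a call had 5 and 8. Over all genes the first was true of 56.4% of the 1363 lower and 10.0% of the 920 higher genes, and the second of 23.1% and 74.7%.

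**Figure D5:**
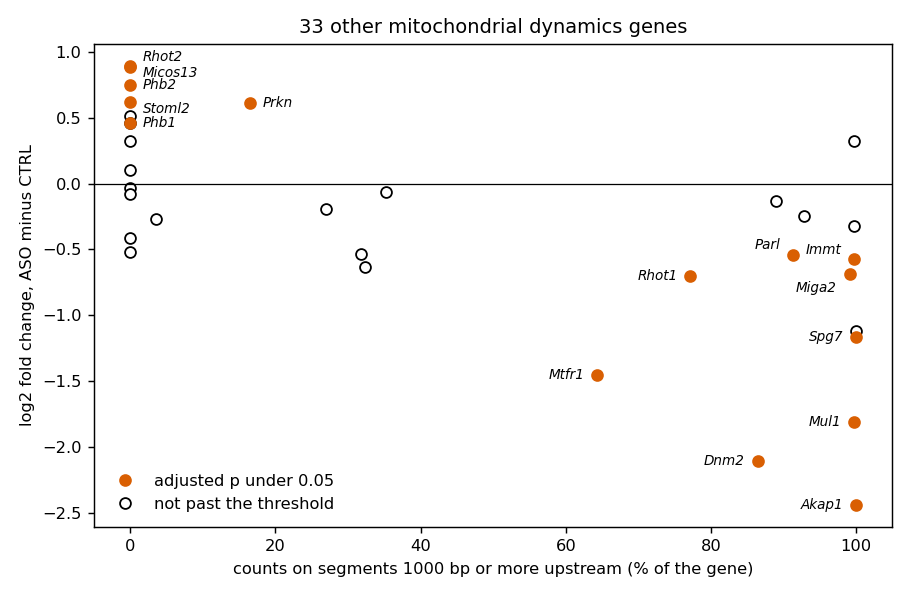
Log2 fold change (ASO minus CTRL) of the 33 tested genes of the further mitochondrial dynamics list against the percentage of each gene's counts that lay 1000 bp or more upstream of the most distal end. Coloured points have an edgeR adjusted p under 0.05; the 9 lower genes all lie above 50% and the 6 higher genes all lie below it.

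Across the 10 libraries, Dnm1l followed Mff (Pearson r of log2(CPM + 1) 0.95) and Mief1 (0.87), and ran against Mief2 (−0.86), as a description that the difference between the groups enters. The 3 tested genes most like Dnm1l were Actr1a, Cog8 and Ppp2r2d (r 0.99 each), those most like Mff Psmc6, Smyd1 and Eya1 (0.99 each), and those most like Mief1 Scn4a, Skp1 and Ube2l3 (0.97 to 0.98). Those most like Mief2 were Ndufa1 (0.99), Rnf31 (0.98) and Cox5b (0.97), with Ndufa1 and Cox5b being subunits of the respiratory chain. Opa1 had less close matches, in Ppif, Rpp30 and Gpbp1l1 (0.88 to 0.92). All were the highest of 7812 genes compared, over libraries that share group, depth and the shift along the segments.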

How the data were processed

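GAS poly(A) RNA of 5 ASO and 5 CTRL DIO mice was sequenced in stranded paired-end libraries. The authors trimmed with fastp, aligned to GRCm39 with STAR and counted read pairs in the final 500 bp of each 3′UTR with featureCounts. The parameters the paper lists include no strand option, and the setting is not given in the sources used here. In all, 270 segments have bases of their own on their strand but are wholly overlapped by segments on the other strand. Of these, 134 had no count, and the 270 together held 32548 counts. The strand setting itself was not tested. The paper names Gencode M25, a GRCm38 release, for the counting. The member segments, however, lie within the canonical transcripts of their genes in GRCm39, and this mismatch was not resolved. They deposited unnormalized counts for 52423 segments, and 4 per-sample columns outside this design were not used. Of the segments, 52361 were mapped to genes with GENCODE M39 on GRCm39 (the other 62 hold 0.0197% of counts) and summed per gene. Coordinates are 1-based.

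Groups were compared with edgeR 4.0.16 (R 4.3.3): TMM, the filter on low counts by group, quasi-likelihood tests and Benjamini-Hochberg adjustment over all 7813 genes or 10652 segments, at 0.05, with no covariate. Segment usage was tested with diffSpliceDGE. Single values were compared by exact permutation over 252 labellings. A floor of 3 counts is 1.25 to 1.77 CPM per library, for counting error only. Alternatives were other scalings (RLE, total counts, upper quartile), other filters, DESeq2 1.42.0, limma-voom 3.58.1, leaving out the 20 highest genes or each library in turn, the replicate number as a block, the most distal segment only, and libraries drawn down to the smallest total; the fit by distance class, and ranges without single libraries for marker sums and ratios, were added after seeing the data. Procedures were tested on simulated data. Figures were drawn with matplotlib 3.10.9 in Python 3.11.15.

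The members and lists, the muscle, adipocyte, macrophage, endothelial, Schwann cell, fibroblast and blood markers included, were chosen with earlier results of these data known. Genes named are the 10 members, up to 8 genes of the further list past the threshold with the smallest p and Phb2, and the 3 genes most correlated with each called member and Opa1. The labels do not say whether replicates are more than separate samples of 1 experiment, so p-values measure the spread between these animals only.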

Additional observations from a re-analysis of the deposited data

Results flagged for a closer look

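In 1 of 32 groups of 5 libraries examined, 1 library stood apart from the others. On the most distal Mfn1 segment, CTRL replicate 3 had 9.39 CPM while the other controls had 19.8 to 22.9 CPM, a gap of 0.768 of the range of the group against a critical value of 0.71. A test at this level marks some groups by chance when 32 are examined. Without that library the log2 fold change of the segment was −0.96 (edgeR adjusted p = 0.00454).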

How the results depend on the processing

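Dnm1l and Mff stayed lower and past the threshold in all 10 alternatives that gave them a value (−1.35 to −1.08 and −1.22 to −0.96). The Mief1 call was lost with upper quartile scaling (−0.39), without a filter (−0.43), with DESeq2 (−0.43), with the replicate block (−0.49) and with libraries drawn down to the smallest total (−0.41). Scaling by total counts gave 528 genes higher and 1819 lower (22.5% of calls higher, 40.3% in the report, 51.1% with upper quartile), shifted the median of all genes by −0.18 and put Mief2 at 0.48, Mtfp1 at −0.14 as gene and segment, and Oma1 at −0.55, past the threshold. With only the most distal segments, 232 genes were higher and 335 lower, the further list had 2 higher and 0 lower, and the values were Mief2 0.38 and no call, Mtfp1 −0.25, Opa1 0.10, and Mfn1 −1.11 and Oma1 −0.66 with a call; Dnm1l, Mff, Mief1 and Mfn2 could not be tested there. The 585-bp Mief1 segment was 0.027 with upper quartile scaling. In the fit by distance class, the sign turned for the 1886-bp Mfn1 segment (0.61), the 24480-bp Opa1 segment (0.037), Mtfp1 (−0.25) and the 585-bp Mief1 segment (0.077). The cause of these changes was not tested.

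Replicate numbers did not pair the libraries: correlations of deviations from the group means were −0.43 to 0.16, with 1 of 5 over 0.1, and 0 of 5 ASO libraries correlated best with its own number. With the replicate block 662 genes were higher and 1172 lower, the further list had 3 higher and 8 lower, and Mief1 (−0.49, adjusted p = 0.0558) and Mief2 (0.69, adjusted p = 0.0530) were not called.

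Leaving out 1 library gave 692 to 1021 genes higher and 1127 to 1369 lower, 4 to 6 and 8 to 11 in the further list, and log2 fold changes of −1.24 to −1.06 for Dnm1l, −1.15 to −0.92 for Mff, −0.52 to −0.36 for Mief1, 0.54 to 0.80 for Mief2, −0.10 to 0.28 for Mtfp1, −0.33 to −0.07 for Mfn1, −0.51 to −0.23 for Mfn2, −0.24 to −0.07 for Opa1 and −0.48 to −0.25 for Oma1. For segments it gave −0.15 to 0.10 (Mief1, 585 bp), −0.25 to 0.016 (Mfn1, 1886 bp), −0.054 to 0.32 (Mtfp1) and 0.30 to 0.61 (Opa1, most distal, called without CTRL replicate 1 only, adjusted p = 0.0276). Members had 703 (Oma1) to 11708 (Mfn2) counts in all, the smallest SE of a log2 fold change was that of Mief1 (0.15, 840 counts) and the largest that of Mfn2 (0.23), and the part of depth in this precision was not tested. Fis1 has no value at this depth and segment layout.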
